A study of Mus musculus with 6 samples.

Results

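CD4+CD25hi thymocytes were compared with CD45+EpCAM- thymic cells on 4 arrays of a series of 6, namely both arrays of each population. The CD4+CD25hi gate, which also asked for absence of CD8, enriches regulatory T cells. The CD45+EpCAM- gate takes blood-derived cells that lack the epithelial adhesion molecule EpCAM; the labels call this fraction thymic stroma, and the design text says that macrophages or dendritic cells are enriched in it. Each population was taken from C57BL/6 mice of 2 genotypes, one that lacks TNF (TNFalpha-KO) and one that lacks both TNF and RelA (the double knockout), so that all 4 groups lack TNF and 1 array of each population also carries the RelA mutation. The mice were 1.5 to 2 weeks old. Each array holds the RNA of 1 pool, from 5 mice for CD4+CD25hi cells and from 10 thymi for CD45+EpCAM- cells, and sex is not given. The CD45+EpCAM- cells came from thymi that were minced, stirred with digesting enzymes for 30 min and spun on a density gradient, steps that are not described for the CD4+CD25hi cells.

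Regulatory T cells restrain other immune cells. They arise in the thymus from CD4+ thymocytes whose receptor binds self-peptides strongly, and their identity rests on the transcription factor Foxp3 and on interleukin 2, which they bind through CD25 (Il2ra). Macrophages of the thymus engulf the many thymocytes that die during selection, while dendritic cells and B cells show self-peptides on MHC class II. Most thymocytes are immature CD4+CD8+ cells, which rearrange their receptor genes with the Rag enzymes and descend from rapidly dividing precursors. NF-kB, a family of factors of which RelA is a member, acts downstream of the T cell receptor and of TNF-family receptors.

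A level is given as log2 of the processed signal minus the 75th percentile of its array, and a difference as CD4+CD25hi minus CD45+EpCAM- on the log2 scale, fitted by limma with genotype as a covariate. Where levels are given in pairs, the TNF knockout comes first. A mean over a pair is over the genotypes, which are not replicates, so that the p-values rest on how far the population difference varied between genotypes and do not measure the spread between pools. The CD4+CD25hi arrays were dimmer, with a 75th percentile of 319 and 272 against 634 and 676, and 55.1% to 56.5% against 62.1% to 64.9% of probes were well above background by the scanner software's own test. The populations lay on different slides, so that slide, tissue digestion and population cannot be told apart. In bulk RNA, fewer cells of a type and less RNA per cell cannot be told apart either.

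Most tested genes of regulatory T cells were called higher in CD4+CD25hi thymocytes, while most of those of macrophages, MHC class II presentation, immature thymocytes and dividing cells were called higher in CD45+EpCAM- cells. For macrophages this is a description, since 17 of 32 genes on the array were not well above background on either CD4+CD25hi array. A gene was tested if it was well above background on both arrays of at least 1 population, and called at a limma adjusted p under 0.05, at least 2-fold, in the same direction in both genotypes. Of 13708 genes tested, 941 (6.86%) were called higher in CD4+CD25hi thymocytes and 1478 (10.8%) lower, 17.6% in all, and the median difference over the tested genes was 0.03. The shares of 6.86% and 10.8% are those against which each list count below is to be read. Of the calls, 802 of the higher and 1337 of the lower genes were at least 2-fold apart in each genotype. Among the 11995 genes measured on all 4 arrays the counts were 849 higher and 904 lower, against which list counts over such genes are to be read. Of all calls, 467 lower genes were not well above background on either CD4+CD25hi array, and 58 higher genes on neither CD45+EpCAM- array. With normexp background correction the counts were 800 and 801, and the median difference over all tested genes was 0.17. When any 1 of the 4 arrays was left out, in a limma fit that also held the CD45-EpCAM+ arrays of the series, 0 genes were called in either direction. Of the tested genes, 982 to 1211 higher and 1470 to 1739 lower ones then had an unadjusted p under 0.05, and 89.2% to 95.5% of the called genes stayed at least 2-fold apart in the same direction.

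**Figure D1:**
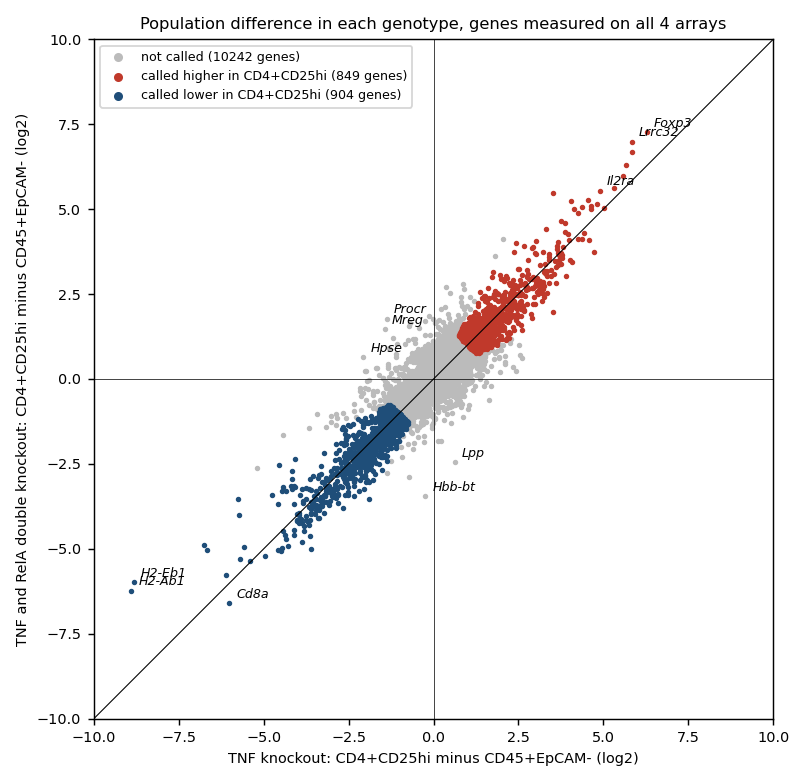
Each point is 1 gene measured on all 4 arrays, placed by its population difference (log2, CD4+CD25hi minus CD45+EpCAM-) in the TNF knockout on the x axis and in the double knockout on the y axis, with the line of equality. The 849 genes called higher lie in the upper right and the 904 called lower in the lower left, with Foxp3 and Lrrc32 at the upper end and H2-Ab1 and H2-Eb1 at the lower end.

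The sorting markers and the targeted genes were read as a check of the labels. Ptprc, which encodes CD45, stood at 3.68 and 3.80 in CD4+CD25hi thymocytes and at 3.43 and 3.66 in CD45+EpCAM- cells, and Cd4 at 4.04 and 4.01 against 3.89 and 3.76; neither was called. Il2ra, the gene of the CD25 sorting marker, was 5.22 higher (SE 0.21, limma adjusted p = 0.00982) in CD4+CD25hi thymocytes. Rela stood at 4.52 in the TNF knockout and 2.66 in the double knockout among CD4+CD25hi thymocytes, and at 4.04 and 3.30 among CD45+EpCAM- cells. It was lower in the double knockout in both populations, and the population difference of -0.08 (SE 0.34) was not called. Tnf, disrupted in all groups, stood at -0.64 and -0.78 against -0.57 and -0.64; where its probe and that of Rela lie relative to the disrupted parts is not known here.

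Of 23 regulatory T cell genes tested, 16 were called higher in CD4+CD25hi thymocytes and none lower, with a median difference of 2.74. Foxp3, the lineage factor, stood at 4.46 and 4.79 in CD4+CD25hi thymocytes and at -1.82 and -2.48 in CD45+EpCAM- cells. That difference of 6.78 (SE 0.31, limma adjusted p = 0.0102) was the largest among genes higher in CD4+CD25hi thymocytes and measured on all 4 arrays. Lrrc32, which encodes the docking receptor GARP for latent TGF-beta, stood at 5.96 and 5.88 against 0.13 and -1.12, 6.41 higher (SE 0.36, limma adjusted p = 0.0116). Ctla4, an inhibitory receptor that competes for costimulatory ligands, stood at 1.32 and 1.99 against -3.30 and -3.01, 4.82 higher (SE 0.15, limma adjusted p = 0.00982). For each of these genes both CD4+CD25hi arrays lay above both CD45+EpCAM- arrays.

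Of the 3 TNF-receptor family genes of the list, Tnfrsf4 and Tnfrsf18 were called higher. Tnfrsf4, which encodes the costimulatory receptor OX40, stood at 7.54 and 7.37 against 2.72 and 2.22, and Tnfrsf18, which encodes GITR, at 6.41 and 6.09 against 2.16 and 1.97. Their differences were 4.99 (SE 0.13) and 4.19 (SE 0.10), each with a limma adjusted p of 0.00982. The third member, Tnfrsf9, which encodes 4-1BB, differed by 0.57 (SE 0.10) and fell short of 2-fold; over the mean of its 2 probes it differed by 2.07 and was called. Ikzf4 and Ikzf2, the genes of the Ikaros-family factors Eos and Helios, were 4.04 (SE 0.10) and 2.94 (SE 0.11) higher, and Nt5e, the adenosine-forming ectoenzyme CD73, 3.25 (SE 0.12) higher.

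The other 7 genes of this list, Tnfrsf9 and Ebi3 among them, were not called, though Ebi3 was called higher with normexp (1.56). Icos, a costimulatory receptor, stood at 3.29 and 3.29 against 2.52 and 2.87, and Lag3, an inhibitory receptor, at -1.76 and -3.04 against -2.13 and -2.37. Tigit differed by 0.51 (SE 0.37) and Entpd1, the ectoenzyme CD39, by 0.11 (SE 0.23). Gzmb, a granule protease, stood at -2.38 and -2.76 against -0.21 and -2.49, a gap seen in the TNF knockout alone.

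**Figure D2:**
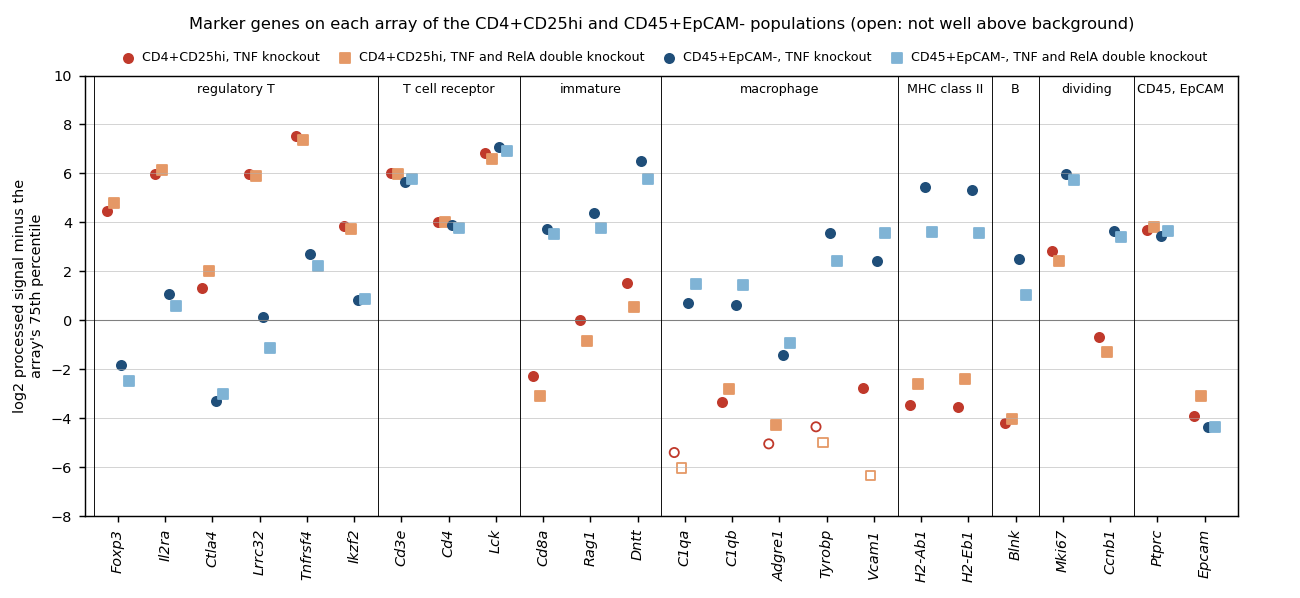
Levels (y axis, log2 processed signal minus the array's 75th percentile) of marker genes on the 4 arrays; each point is 1 array, filled where the spot was well above background. Foxp3, Il2ra, Ctla4 and Lrrc32 lie higher on both CD4+CD25hi arrays, Cd3e, Cd4 and Ptprc lie close together, and Cd8a, Rag1, C1qa, H2-Ab1, Blnk and Mki67 lie higher on both CD45+EpCAM- arrays.

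Outside the list, the largest higher differences measured on all 4 arrays were those of Gm4956 (6.28), Map6 (5.99), Sptbn4 (5.78), Cavin1 (5.46), Pla2g4f (5.03), Slc22a2 (4.92), the STAT5 target gene Cish (4.86), Plagl1 (4.72), Penk (4.64) and Dgat2 (4.58). Penk encodes the opioid precursor proenkephalin, Cavin1 a coat protein of caveolae, Map6 a microtubule stabiliser and Dgat2 an enzyme of triglyceride synthesis. Penk stood at 3.75 and 4.26 against -0.30 and -0.96, without overlap (SE 0.36, limma adjusted p = 0.0158). Flicr, a long non-coding RNA transcribed next to Foxp3, was not well above background on the CD45+EpCAM- arrays. It was at least 30.0-fold higher in CD4+CD25hi thymocytes, and it entered the test only through their arrays. A bound of this kind sets the brighter population's mean against a mean over the other population's arrays. Each of those arrays gives the gene's own signal or the lowest signal called well above background, whichever is higher. For Flicr and Tbc1d30 the bound equals the measured difference. Gcg, the preproglucagon gene, was at least 32.4-fold, Wnt3, a secreted morphogen, at least 15.1-fold and Kndc1 at least 14.5-fold higher, while Capsl, Tbc1d30, Frmd5, Cyp11a1, Tex35 and Pdia2 had bounds from 8.13-fold to 12.6-fold. In the fit over all 6 arrays Gcg and Pdia2 were not called.

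Of 23 cytokine receptor and STAT5 target genes, 9 were called higher and 3 lower, with a median of 0.67. The higher ones included targets of interleukin 2 signals. Cish, a feedback inhibitor induced by STAT5, stood at 4.70 and 4.83 against 0.06 and -0.26, 4.86 higher (SE 0.16, limma adjusted p = 0.00982). Il2rb, the signalling chain that binds interleukin 2 with CD25, was 3.12 (SE 0.20), Socs2 3.35 (SE 0.21), the kinase gene Pim1 2.54 (SE 0.17) and Il4ra and Il6ra each 1.90 higher, whereas the common chain Il2rg differed by 0.56 and was not called. The 3 lower genes were the myeloid growth factor receptors Csf1r and Flt3 and the shared chain Csf2rb.

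Of 22 costimulatory receptor and ligand genes, 6 were called higher and none lower, with a median of 0.56. Beside Ctla4, Tnfrsf4 and Tnfrsf18 these were Cd200 (2.55, SE 0.10), Pdcd1lg2 (2.07, SE 0.15), which encodes the PD-1 ligand PD-L2, and the inhibitory receptor Btla (1.15, SE 0.12). The ligand genes Cd80 and Cd86, which Ctla4 binds, differed by -0.61 and -0.41 and were not called. Of 15 TGF-beta pathway genes, 4 were higher and 1 lower, with a median of 0.86: beside Lrrc32, the receptor gene Tgfbr1 was 1.45 higher, and the pathway inhibitors Smad7 and Skil were 1.94 and 1.98 higher. Tgfbi, a secreted matrix protein named for its induction by TGF-beta, was the lower gene, at least 49.1-fold.

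Of 22 NF-kB pathway genes, 12 were called higher in CD4+CD25hi thymocytes and none lower, with a median of 1.17, in the double knockout 1.36 and in the TNF knockout 1.05. Among the subunits, Nfkb2 stood at 2.67 and 2.38 against 0.50 and -0.60, 2.58 higher (SE 0.26, limma adjusted p = 0.0211). Relb was 2.12 (SE 0.23) and Nfkb1 1.79 (SE 0.10) higher. Rela, the targeted gene, differed by 0.48 in the TNF knockout and by -0.64 in the double knockout. Its mean over the genotypes is therefore not set against those of the other subunits. Among the IkB family, which holds NF-kB dimers back or, as Bcl3 does, joins them in the nucleus, Bcl3 was 2.89 (SE 0.12), Nfkbia 2.15 (SE 0.24) and Nfkbiz 2.09 (SE 0.15) higher. Of the receptor adaptors and ligases, Traf1 and Birc3 were 2.36 and 2.55 higher, and of the pathway's brakes Tnip1 was 1.88 and Tnfaip3 1.26 higher (limma adjusted p = 0.0492). With each gene taken as the mean of its probes, the difference of Tnfaip3 stayed at 1.26 and it was not called (limma adjusted p = 0.0512). The kinase genes Ikbkb and Chuk and the adaptor gene Traf2 stood within 0.41 of each other in the populations and were not called.

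The promoters of Nfkbia and Nfkb2 are shown because both genes were higher and carry a match to the NF-kB motif GGG, AATT, any 1 base and CC in a row, searched on both strands in the 250 bases before the start. Among 32851 promoters of the RefSeq table (GRCm38.p6) 0.170% held it. The 19 NF-kB pathway genes found there have 25 promoters, of which 3 (12.0%) held it, those of Nfkbia, Nfkb2 and Tnip1. Each line gives the 150 bases before the start, 5' to 3' on the gene's strand, with the match in capitals. The Nfkbia stretch lies on chr12:55492648-55492797 (minus strand) and the Nfkb2 stretch on chr19:46304587-46304736 (plus strand).
Nfkbia: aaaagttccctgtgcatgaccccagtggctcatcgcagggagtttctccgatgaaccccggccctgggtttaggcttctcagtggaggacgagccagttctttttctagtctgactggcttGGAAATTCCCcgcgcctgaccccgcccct
Nfkb2: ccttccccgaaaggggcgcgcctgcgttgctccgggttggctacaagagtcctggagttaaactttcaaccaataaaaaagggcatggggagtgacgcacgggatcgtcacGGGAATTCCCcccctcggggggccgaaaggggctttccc

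Of 19 agonist selection genes tested, which strong receptor signals induce, 7 were called higher and none lower, with a median of 0.88. In the fit over all 6 arrays 4 were called, and Nr4a3, Nr4a1 and Irf4 were not. Nr4a3, an immediate target of the T cell receptor, stood at -0.99 and -1.96 against -4.61 and -4.80, 3.23 higher (SE 0.25, limma adjusted p = 0.0157), and its relative Nr4a1 was 1.76 higher (SE 0.26). The transcription factor genes Bhlhe40, Batf and Irf4 were 3.15, 2.21 and 1.85 higher and Cd83, an activation marker, 2.57 higher, whereas the immediate-early gene Egr1 stood at 2.42 and 2.33 against 2.52 and 2.77. Of 12 dissociation response genes, which tissue handling can induce, 5 were higher and none lower, Jun by 3.45 (SE 0.10), Junb by 2.13, Dusp1 by 1.53, Ier2 by 1.31 and Fos by 1.01 (SE 0.12). Fos fell short of 2-fold with median centring (0.99) and with normexp (0.85).

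Of 20 mature thymocyte and egress genes, 11 were called higher and none lower, with a median of 1.06 (7 were called in the fit over all 6 arrays). S1pr1, the sphingosine 1-phosphate receptor that guides cells out of the thymus, stood at 3.53 and 3.94 against 1.11 and 2.21, 2.07 higher (SE 0.23, limma adjusted p = 0.0236). The GTPase gene Gimap3 was 2.21 (SE 0.24), Foxo1 1.67, Klf2, an activator of S1pr1, 1.51 and Ccr7 1.46 higher. Ly6c1, at 1.24 and 1.65 against 4.42 and 3.05, lay lower and was not called, but with normexp it was called lower (-2.41). Of 16 apoptosis genes 5 were higher and 1 lower, with a median of 0.78; Pmaip1, Fas, Mcl1, Bcl2a1d and Tnfrsf10b lay between 1.03 and 1.70 higher and Bmf 1.20 lower, and in the fit over all 6 arrays 2 were higher and none lower.

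Of 22 genes of the T cell receptor complex and its signalling, 1 was called higher and 1 lower, with a median of 0.20, against 6.86% and 10.8% of all genes. Cd3e, a chain of the receptor complex, stood at 6.00 and 5.97 against 5.67 and 5.77, and Lck, its kinase, at 6.84 and 6.57 against 7.08 and 6.92. The gene called higher was the adhesion receptor Cd2 (1.19, SE 0.18; not called with quantile normalization), and the gene called lower was Thy1 (-1.58, SE 0.27; not called in the fit over all 6 arrays). The sum of the list's signals, as log2, was 9.54 and 9.49 in CD4+CD25hi thymocytes and 9.37 and 9.43 in CD45+EpCAM- cells, so that the fraction sorted as CD45+EpCAM- also carried abundant T cell receptor transcripts.

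The T cell transcripts of the CD45+EpCAM- fraction included those of immature thymocytes. Of 23 immature thymocyte genes, 19 were called lower in CD4+CD25hi thymocytes and none higher, with a median of -2.47. Cd8a, the coreceptor gene that the CD4+CD25hi gate sorted against, stood at -2.29 and -3.07 against 3.74 and 3.53, 6.32 lower (SE 0.20, limma adjusted p = 0.00982). Dntt, the polymerase that adds bases at receptor gene joints, stood at 1.54 and 0.53 against 6.50 and 5.76, and Rag1, of the receptor gene recombinase, at 0.03 and -0.85 against 4.40 and 3.76. Neither pair of arrays overlapped, with differences of -5.09 (SE 0.12) and -4.49 (SE 0.12). Endou, an endoribonuclease, was 5.50, the chemokine receptor Ccr9 3.79 and Ptcra, the pre-T cell receptor chain, 2.96 lower, while Notch1, Il2rg, Cd1d1 and Myb lay within 0.69 and were not called. The summed signal of the list was 6.14 and 5.96 against 8.38 and 8.02, with all 23 genes well above background on both CD45+EpCAM- arrays; what part these thymocyte transcripts have in the other differences was not tested.

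Genes of dividing cells were lower in CD4+CD25hi thymocytes throughout the list: 26 of 26 tested were called lower, with a median of -3.05, against a background of 10.8% of genes called lower. Mki67, which encodes the proliferation antigen Ki-67, stood at 2.82 and 2.44 against 6.00 and 5.73, 3.23 lower (SE 0.10, limma adjusted p = 0.00982). Ccnb1, a cyclin that drives entry into mitosis, stood at -0.67 and -1.31 against 3.66 and 3.40, 4.52 lower (SE 0.15), and its kinase Cdk1 at -1.87 and -2.37 against 1.71 and 1.33, 3.64 lower (SE 0.10). The gap was wider in the double knockout for 24 of the 26 genes. The difference in the double knockout minus that in the TNF knockout had a median of -0.33, against -0.01 over all tested genes, which was not tested. Split after their values were seen, the 14 mitosis and chromosome genes had a median of -3.51, and the 6 Mcm genes, which encode the helicase that licenses replication, lay between -1.01 and -1.25, just past 2-fold. The Mcm genes and Aurkb were not called in the fit over all 6 arrays, which called 19 of the 26, and Aurkb, dim in CD4+CD25hi thymocytes, turned from -2.46 to 0.32 with normexp. Rrm2, of the enzyme that supplies deoxynucleotides, was 3.59 (SE 0.16) and the replication clamp Pcna 1.50 (SE 0.14) lower.

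**Figure D3:**
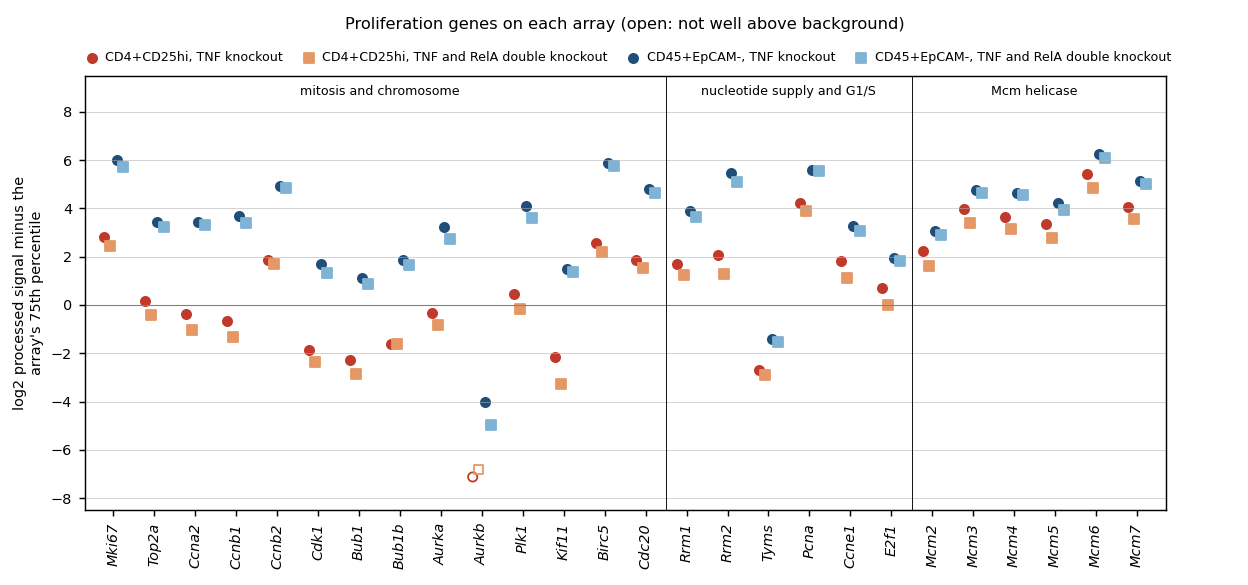
Levels (y axis, log2 processed signal minus the array's 75th percentile) of the 26 tested proliferation genes on the 4 arrays, each point 1 array, open where not well above background. Both CD45+EpCAM- arrays lie above both CD4+CD25hi arrays for each gene, by more for the mitosis genes such as Ccnb1 (-4.52) than for the Mcm genes (-1.01 to -1.25).

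The promoters of Ccnb2, Cdk1 and H2-Eb1 are shown because these genes were lower and their promoters hold the CCAAT motif. CCAAT was searched on both strands, so that it also appears as ATTGG, in the 250 bases before the start. It was present in 33.8% of the 32851 promoters and in 11 of 12 promoters of the mitosis genes. It was also in 6 of 6 promoters of the Mcm genes and in 10 of 16 promoters (62.5%) of the MHC class II presentation genes. A match is a description and not a site. The stretches of 150 bases before the start lie on chr9:70421555-70421704 (Ccnb2, minus strand), chr10:69352913-69353062 (Cdk1, minus strand) and chr17:34305717-34305866 (H2-Eb1, plus strand), with the motif in capitals.
Ccnb2: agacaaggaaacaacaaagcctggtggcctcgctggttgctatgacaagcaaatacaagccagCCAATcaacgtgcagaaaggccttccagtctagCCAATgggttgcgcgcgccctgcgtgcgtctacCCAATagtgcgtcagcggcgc
Cdk1: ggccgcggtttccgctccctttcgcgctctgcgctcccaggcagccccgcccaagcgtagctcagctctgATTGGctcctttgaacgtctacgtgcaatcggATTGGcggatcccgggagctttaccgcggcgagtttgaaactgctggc
H2-Eb1: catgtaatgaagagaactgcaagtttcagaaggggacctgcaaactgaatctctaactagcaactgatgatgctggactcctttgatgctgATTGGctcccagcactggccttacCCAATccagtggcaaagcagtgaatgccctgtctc

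Among T lineage transcription factors, 7 of 24 were higher and 4 lower, with a median of 0.44. Beside Foxp3, Ikzf2, Ikzf4, Batf, Irf4 and Foxo1, Bach2, a repressor of effector differentiation, was 1.62 higher (SE 0.24). The lower genes included Satb1 (-1.65), Runx3 (-1.02, SE 0.11) and Id2 (-2.18, SE 0.26), an inhibitor of E proteins that innate lymphocytes and dendritic cells also express. Satb1 and Runx3 were not called in the fit over all 6 arrays. Runx3 also fell short of 2-fold with quantile normalization (-0.96), with normexp (-0.52) and over the mean of its probes (-0.68). Gata3, Bcl11b, Runx1, Lef1 and Zbtb7b, factors shared by T cells of the thymus, lay between -0.47 and 0.88 and were not called.

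Of 32 macrophage genes on the array, 17 were not well above background on either CD4+CD25hi array and 2 on neither CD45+EpCAM- array. A gene of this list that was dim in CD4+CD25hi thymocytes entered the test only through the CD45+EpCAM- arrays, so the count over tested genes is a description: 26 of 29 were called lower and none higher, with a median of -4.11 (-3.26 with dim genes at their bounds and -1.58 with normexp, by which 18 were called). Of the 10 measured on all 4 arrays 7 were called lower, with a median of -2.36. The list's summed signal was 4.86 and 5.54 in CD4+CD25hi thymocytes and 6.25 and 6.67 in CD45+EpCAM- cells, with 12 to 13 against 29 to 30 of 32 genes well above background. In CD4+CD25hi thymocytes most of that sum was the signal of Itgam, which did not separate the populations (below). C1qa and C1qc, chains of the complement component C1q that macrophages secrete, were at least 55.2-fold and 85.0-fold lower in CD4+CD25hi thymocytes. C1qb, the third chain, could be measured in both and stood at -3.34 and -2.81 against 0.63 and 1.44, 4.11 lower (SE 0.13, limma adjusted p = 0.00982). Adgre1, which encodes F4/80, stood at -5.05 and -4.27 against -1.44 and -0.91 and was 3.49 lower (SE 0.12), well above background on 1 of the CD4+CD25hi arrays.

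Other genes of the macrophage list were lower as well. Vcam1, an adhesion molecule, stood at -2.77 and -6.35 against 2.42 and 3.55 (SE 1.39, limma adjusted p = 0.0483; not called with quantile normalization), and the iron exporter gene Slc40a1 at -4.48 and -6.67 against 0.10 and 1.07, each well above background on 1 CD4+CD25hi array. Both CD4+CD25hi arrays lay below both CD45+EpCAM- arrays for each gene. Spic, the factor of iron-recycling macrophages, was at least 34.5-fold, the mannose receptor Mrc1 at least 22.6-fold, and the death-cell receptors Mertk and Timd4 at least 5.69-fold and 4.43-fold lower, although with normexp they differed by -0.80 and -0.61 and were not called. Hmox1, the haem-degrading enzyme, was 2.51 (SE 0.25) and Apoe, a lipid carrier, 3.71 (SE 0.12) lower. Csf1r, the growth factor receptor of macrophages, stood at 0.22 and 0.50 against 2.23 and 2.91, well above background on all 4 arrays. Itgam, which encodes CD11b, stood at 4.64 and 5.39 against 4.17 and 4.64; this marker did not separate the populations, and neither did Marco (-0.82).

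Adaptors and surface receptors of myeloid cells gave some of the widest gaps. Tyrobp, the signalling adaptor of many myeloid receptors, stood at 3.57 and 2.43 in CD45+EpCAM- cells, with a bound of 172-fold lower in CD4+CD25hi thymocytes, and Fcer1g, a related adaptor, was 4.87 lower (SE 0.52). Aif1, Mpeg1 and Ly86, the last of which partners a Toll-like receptor relative, were 5.26, 5.83 and 4.64 lower, and Plbd1, the protease gene Ctsh, Clec4n, which encodes Dectin-2, Cd163l1 and Sirpa had bounds of 260-fold, 175-fold, 90.5-fold, 81.0-fold and 49.9-fold lower. Of 9 Fc receptor and C-type lectin genes tested 6 were lower, but among the 3 measured on all 4 arrays 1 was, and Fcgr3 and Fcgr4 differed by -0.18 and -0.01. Of 18 myeloid transcription factors, 11 were lower and none higher (6 with normexp, 7 in the fit over all 6 arrays, and 5 of the 12 measured on all 4 arrays), among them Nr1h3 (-3.33), which encodes the sterol sensor LXR alpha, whereas Irf8, Irf5, Klf4 and Cebpb were not called.

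**Figure D4:**
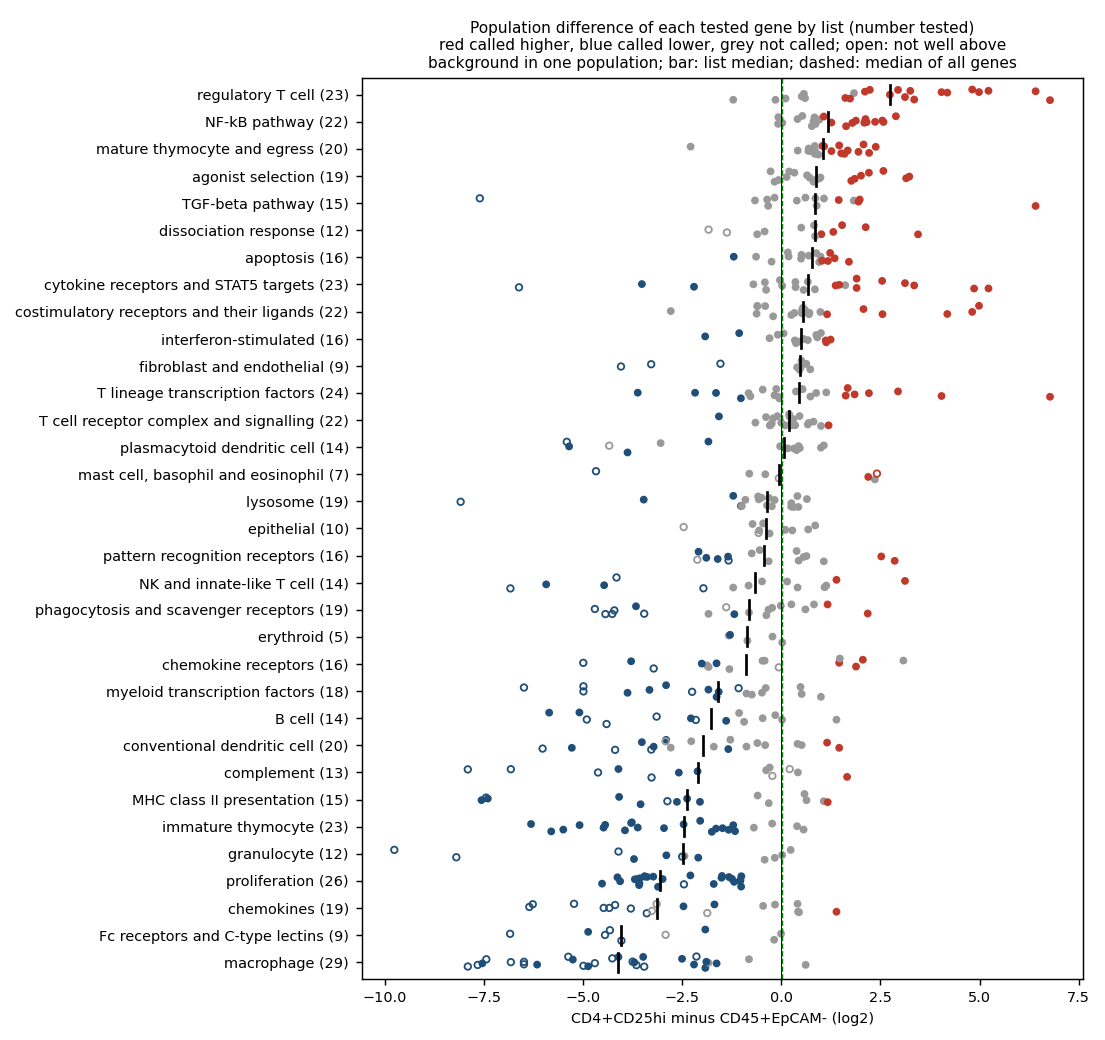
Each point is 1 tested gene of a list, placed by its population difference (x axis, log2, CD4+CD25hi minus CD45+EpCAM-), and each black bar the median of its list; lists are ordered by median. Regulatory T cell genes (median 2.74) and NF-kB pathway genes (1.17) lie furthest right, and macrophage genes (-4.11) and proliferation genes (-3.05) lie far left. Many macrophage genes are open points, not well above background in CD4+CD25hi thymocytes; over genes measured on all 4 arrays the medians were -2.36 and -3.11.

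MHC class II genes had the largest lower differences measured on all 4 arrays. H2-Ab1, a class II chain, stood at -3.46 and -2.61 against 5.44 and 3.62, 7.57 lower (SE 0.79, limma adjusted p = 0.0225), and H2-Eb1 at -3.52 and -2.42 against 5.30 and 3.57, 7.41 lower (SE 0.84, limma adjusted p = 0.0249). H2-Aa was at least 65.4-fold lower. Of 15 genes of the list 9 were called lower and 1 higher, with a median of -2.38 (-2.05 over the 13 measured on all 4 arrays). The peptide loading gene H2-DMb1 was 4.09 (SE 0.40), the invariant chain Cd74 3.55 (SE 0.21) and the processing enzymes Ifi30, Lgmn and Ctsl 2.38, 2.64 and 2.05 lower. Ctss, another cathepsin of the pathway, stood at 4.07 and 4.30 against 3.22 and 2.82 and was the gene called higher (1.17, SE 0.21; not called with normexp or over all 6 arrays), and Ciita, the master regulator of class II genes, differed by -0.32 (SE 0.26) and was not called.

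Dendritic cell genes were fewer among the calls. Of 20 conventional dendritic cell genes, 8 were lower and 2 higher, with a median of -1.99 (-1.46 with bounds, -0.61 over the 11 measured on all 4 arrays). Itgax, which encodes CD11c, stood at -4.28 and -5.91 against 0.92 and -0.54 and was 5.29 lower (SE 0.11, limma adjusted p = 0.00982), with 1 CD4+CD25hi array well above background. The lectin gene Clec10a was at least 20.2-fold and Clec9a, a marker of cross-presenting cells, at least 2.90-fold lower; with normexp Clec9a differed by -0.09, and neither that fit nor the one over all 6 arrays called it. Among those 11 genes 2 were lower and 2 higher. The higher genes were Ccr7 and Btla, which T cells also express and which were not called in the fit over all 6 arrays. Of 14 plasmacytoid dendritic cell genes 4 were lower, Upb1, Cox6a2, Spib and Tcf4, and the list's median of 0.06 turned to -0.06 with normexp and -0.77 over the mean of probes; Siglech stood at 7.28 and 7.42 against 6.89 and 6.87 by its brighter probe and at a difference of -3.10 over the mean of its 2 probes.

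Of 14 B cell genes 8 were lower and none higher (4 with normexp), with 3 of the 8 measured on all 4 arrays. Blnk, an adaptor of the B cell receptor, stood at -4.18 and -4.02 against 2.50 and 1.02, 5.86 lower (SE 0.49, limma adjusted p = 0.0171), while Cd79a and Cd22 were not called. Granulocyte genes were lower in 7 of 12 (4 with normexp, 3 in the fit over all 6 arrays, and 3 of the 6 measured on all 4 arrays), S100a9 and S100a8, the calprotectin subunits, at least 183-fold and 63.2-fold; Csf3r, at 6.71 and 6.93 against 6.76 and 6.85, did not separate the populations. Of 14 NK and innate-like T cell genes 5 were lower and 2 higher, but of the 10 measured on all 4 arrays 1 was lower and 2 higher. The lower one was Gzma, a granule protease, at -1.03 and -1.34 against 5.08 and 4.43, 5.93 lower (SE 0.14). Xcl1 and Il2rb were the higher ones. Klrd1, at least 35.9-fold lower, and Zbtb16, the innate-like T cell factor PLZF, 4.47 lower, were not measured on all 4 arrays. Of 7 mast cell, basophil and eosinophil genes tested, Kit and Cma1 were higher and Cpa3 lower.

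No epithelial gene of 10 was called, and Epcam lay at -3.92 and -3.09 against -4.36 and -4.36. Of 9 fibroblast and endothelial genes Pdgfrb, Cdh5 and Vwf were lower, dim in CD4+CD25hi thymocytes, and none of them was called lower with normexp, which turned Vwf from -1.54 to 0.46, and Col1a1 differed by 0.51. Of 5 erythroid genes 1 was lower, Car2 (-1.29), which was not called with normexp (-0.16) or in the fit over all 6 arrays. The summed signal of the epithelial list was 0.73 and 0.92 against 1.31 and 1.20.

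Secreted and recognition genes of myeloid cells were mostly lower in CD4+CD25hi thymocytes or dim there. Of 19 chemokine genes 10 were lower and 1 higher (6 lower with normexp), Ccl24, Ccl6 and Pf4 at least 31.1-fold, 21.9-fold and 7.76-fold, whereas Xcl1, a chemokine of activated T cells, was 1.39 higher; of the 8 measured on all 4 arrays 2 were lower. Chemokine receptors went both ways, with 3 of 16 higher and 5 lower: Ccr8, expressed by regulatory T cells, was 2.05 (SE 0.13) and Ccrl2 1.88 higher with Ccr7, and Ccr9, Ccr4 and Cxcr6 were 3.79, 1.64 and 2.01 lower. Ccr6 stood at 3.83 and 4.03 against 1.80 and -0.10 and was not called (limma adjusted p = 0.0551), but it was called higher with normexp (2.85) and in the fit over all 6 arrays. Of 13 complement genes 7 were lower and 1 higher (3 and 1 of the 7 measured on all 4 arrays), properdin (Cfp) by 2.59, and Cd55, which protects cells from complement, 1.66 higher.

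Receptors for engulfment and for microbes went both ways. Of 19 phagocytosis and scavenger receptor genes 7 were lower and 2 higher (4 and 1 with normexp), whereas of the 12 measured on all 4 arrays 1 was lower and 2 higher. Stab2, a scavenger receptor not well above background on either CD4+CD25hi array, was at least 18.0-fold lower. Tyro3 and Pros1, a receptor and a ligand of the Mertk family, were 1.17 and 2.18 higher. Of 16 pattern recognition genes 5 were lower and 2 higher (3 and 2 of the 12 measured on all 4 arrays), Unc93b1, the chaperone of endosomal Toll-like receptors, by 2.09, and Nod1 and Tlr1 2.86 and 2.52 higher. Fewer lysosome genes were called: 4 of 19 were lower and none higher, with a median of -0.36, and Grn, which encodes progranulin, was 3.47 (SE 0.19) lower beside Psap (-1.21) and Ctsb (-1.02). Of 16 interferon-stimulated genes 3 were higher, among them Ifit1 and Ifit3, and 2 lower, Oas2 (-1.92) and Oas1a (-1.06), with a median of 0.49. The share called lower, 12.5%, was near the 10.8% of all genes. In the fit over all 6 arrays 1 was higher and 1 lower, and with normexp Ifit1 (0.98) and Oas1a (-0.83) fell short of 2-fold.

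Among other genes with the largest lower differences on all 4 arrays were Plac8 (-5.39), Trf (-4.81), Gm525 (-4.77) and Mt1 (-4.73). Trf encodes the iron carrier transferrin and Mt1 a metal-binding metallothionein. Mt1 stood at -4.44 and -3.79 against 0.02 and 1.19, without overlap (SE 0.18, limma adjusted p = 0.00982).

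The population difference was not the same size in the genotypes for all lists. With 1 array per group this is a description without a test. The difference in the double knockout minus that in the TNF knockout was mostly positive for dendritic, MHC class II and B cell genes, which brings genes lower in CD4+CD25hi thymocytes nearer and moves higher ones further apart. It had a median of 1.32 over 20 conventional dendritic cell genes, 1.03 over 14 plasmacytoid dendritic cell genes, 1.05 over 15 MHC class II genes and 0.99 over 14 B cell genes, and was positive for 15, 14, 14 and 12 of them. Many of these genes were dim in CD4+CD25hi thymocytes; over the 11, 11, 13 and 8 genes measured on all 4 arrays the medians were 0.33, 0.66, 0.83 and 0.25. In CD45+EpCAM- cells themselves these lists lay lower in the double knockout, with medians from -1.14 to -0.66, and in CD4+CD25hi thymocytes between 0.12 and 0.25. Cox6a2, for instance, a muscle-type respiratory subunit that plasmacytoid dendritic cells express, stood at 2.26 and -0.83 in CD45+EpCAM- cells.

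For macrophage, granulocyte and Fc receptor genes the medians were -0.40, -0.91 and -0.80, and over the 10, 6 and 3 genes measured on all 4 arrays -0.26, 0.03 and -0.64. The median population difference of the macrophage list was -4.29 in the TNF knockout and -4.01 in the double knockout. In CD45+EpCAM- cells these lists lay higher in the double knockout, by 0.66, 1.24 and 0.79. S100a8 stood at 0.21 and 2.40 there and Ccl24 at -1.01 and 1.57, against Clec10a at 0.91 and -1.60. Over all 13708 tested genes the median was -0.01, the SD among genes measured on all 4 arrays was 0.39, and 2.89% of these genes differed at least 2-fold between the genotypes.

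The 10 genes with the widest gap between genotypes among those measured on all 4 arrays were led by Hbb-bt, a haemoglobin chain, at -3.21. Procr, the endothelial protein C receptor, stood at -4.04 and -3.08 in CD4+CD25hi thymocytes and at -2.66 and -4.86 in CD45+EpCAM- cells, a gap of 3.15. Lpp had a gap of -3.07, and Mreg, Ly6d, Hpse, Lingo4 and Klk1b3 had gaps from 2.41 to 2.90, with H2-Eb1 (2.84) and H2-Ab1 (2.67) among them. For Lingo4, at -3.96 and -2.09 against 1.24 and 0.54, both CD4+CD25hi arrays stayed below both CD45+EpCAM- arrays, whereas Procr, Lpp, Mreg and Hpse changed the sign of their population difference.

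**Figure D5:**
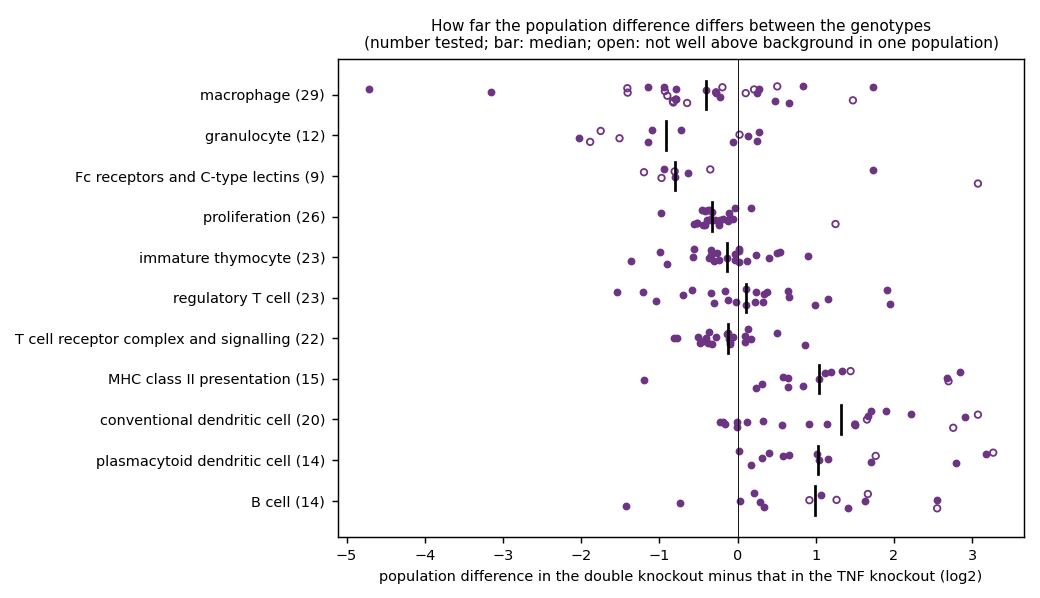
For each tested gene of 11 lists, the population difference in the double knockout minus that in the TNF knockout (x axis, log2), with the list's median as a bar. Dendritic, MHC class II and B cell genes lie mostly right of 0, with medians from 0.99 to 1.32, and granulocyte and Fc receptor genes mostly left, with medians of -0.91 and -0.80. Over genes measured on all 4 arrays the granulocyte median was 0.03 and the dendritic, MHC class II and B cell medians 0.25 to 0.83.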

How the data were processed

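RNA was amplified, labelled with Cy3 and hybridised to 1-colour Agilent mouse arrays (design 026655). The deposited scanner files hold background-subtracted processed intensity values; they come from Agilent Feature Extraction, version 9.5 per the submitters' processing notes and 10.5.1.1 per the file headers. The series' deposited value table equals log2 of that intensity minus each array's 75th percentile within 0.05 for 100% of probes, so its scale and centring are known; it was used as an alternative. The build behind the probes is not used here, and no probe coordinates are given. Here log2 of the processed intensity was taken minus the 75th percentile of the array, control spots and outlier flags were left out, and each gene was represented by its brightest probe. Of 39422 probes, 27231 carry 1 gene symbol (69.1%) and 12191 none. Precision is limited by the 4 arrays: the fit has 1 residual degree of freedom and 1.87 prior ones. Each group is 1 pool, so p-values measure only the spread between these arrays. Population and genotype were fitted with limma 3.58.1 (R 4.3.3, lmFit and eBayes, Benjamini-Hochberg over 13708 genes). Normexp (offset 50), an alternative, was run on the median spot signal because the scanner files used hold no mean signal.

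Genes named are the 15 per direction with the largest difference, called and measured on all 4 arrays with probes that go the same way; the 10 brightest per direction that were dim in the other population; members of 33 lists (552 genes on the array); the sorting and genotype checks; and the 10 with the widest genotype gap. The members and lists were chosen with earlier results of these data known. Promoters are from RefSeq (GRCm38.p6). The test was checked on simulated data. Results for some genes are not reported here.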

Additional observations from a re-analysis of the deposited data

Results flagged for a closer look

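For 4 genes measured on all 4 arrays and named above, the populations differed by at least 0.5 (log2) in opposite directions in the genotypes; this was not tested, with 1 array per group. The difference in the double knockout minus that in the TNF knockout was 3.15 for Procr (-1.38 in the TNF knockout, 1.78 in the double knockout), -3.07 for Lpp (0.62 and -2.45), 2.90 for Mreg (-1.43 and 1.46) and 2.72 for Hpse (-2.08 and 0.65). Of 6248 tested probes without a gene name, which no comparison above uses, 290 were called higher and 444 lower in CD4+CD25hi thymocytes by limma with the same rule.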

How the results depend on the processing

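Higher and lower counts (941 and 1478) were within 1.5 times under 7 alternatives: all 6 arrays, quantile normalization, median centring, the deposited value table, the mean over probes, an intensity trend, and no genotype term. At least 2-fold in each genotype with no p gave 829 and 1425. With no filter on dim genes 438 and 739 were called, over 20658 genes tested. Normexp gave 800 and 801, and a filter for all 4 arrays 910 and 932, over 11995 genes. Leaving out each array gave 0 to 0 in both directions (lowest limma adjusted p from 0.0659 to 0.0862). List medians that changed sign were, with normexp, plasmacytoid dendritic cell (0.063 to -0.062), mast cell, basophil and eosinophil (-0.07 to 0.69), epithelial (-0.38 to 0.46) and pattern recognition genes (-0.43 to 0.37), and over the mean of probes plasmacytoid dendritic cell genes (-0.77). Genes that changed sign with normexp were Aurkb (0.32), Cd79a (0.19), Ciita (0.33), Csf3r (-0.10), Fcgr4 (0.17), Lag3 (0.31), Marco (0.22), Notch1 (0.086), Traf2 (-0.086) and Vwf (0.46); with quantile normalization Csf3r (-0.35), Fcgr4 (0.049) and Traf2 (-0.00070); with median centring Cd22 (-0.00070) and Mreg (-0.0030); and over the mean of probes Cd80 (0.83) and Siglech (-3.10). Of these, Aurkb and Vwf were called in the reported fit. The cause was not tested. The genotype term of the fit compares the populations within each genotype. No further pairing was possible because each group has 1 array. Dim genes in CD4+CD25hi thymocytes have only bounds there, and these arrays were the dimmer ones.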

Other observations

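Transcripts linked to sex chromosomes, looked at after their values were seen, varied between the pools, whose sex composition is not given. Xist, expressed from the inactive X chromosome, stood at -0.13 and -0.31 in CD4+CD25hi thymocytes and at 1.11 and 0.80 in CD45+EpCAM- cells, 1.18 lower in the former (limma adjusted p = 0.0178). It was not called in the fit over all 6 arrays. Over the mean of its probes it differed by -0.99, short of 2-fold. The Y-linked genes Ddx3y and Eif2s3y were detected in all 4 pools and differed by 0.82 and 1.03 (limma adjusted p = 0.141 and 0.0997).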
